A study of Mus musculus with 5 samples.

Results

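The expression of 10 macrophage genes was examined on arrays of endothelial cells from mouse liver and hepatoma. The genes were grouped by the cell they are known to mark. Clec4f, Cd5l, Vsig4, Timd4 and Marco mark Kupffer cells, the resident macrophages of the liver. Adgre1, Cd68 and Csf1r are shared by most macrophages, and Spp1 and Gpnmb are known from macrophages of tumors. All probes that carried one of these gene names were taken, which gave 14 probes of 56605 on the array and 10 genes of 37074. Signals are given as log2 values after quantile normalization over the 5 arrays, and where 3 values are given for TECs without names they follow the order HAK-1B, Hepa1-6, KYN-2.

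There were 5 samples with 1 array each. LSECs, the fenestrated endothelial cells that line the liver sinusoids, came from mouse liver. TECs came from tumors that had grown in the mouse liver after injection of 1 of 3 hepatoma lines, the human lines HAK-1B and KYN-2 and the mouse line Hepa1-6, and Hepa1-6 cells in culture made up the remaining sample. The labels give the strain C57BL/6 for LSECs and all 3 TECs and C57L for the cultured cells. The methods name female mice of 6 weeks that were either C57BL/6 or nude BALB/c nu/nu, without stating which received which line. Nude mice lack mature T cells. For this experiment the methods list Huh-7 where the labels have HAK1B, and the labels were followed here. TECs were enriched from digested tumor with magnetic beads against CD31, an adhesion protein of endothelial cells that some myeloid cells also carry. No source used here says how many mice went into an array.

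Of all probes, 44.6% to 78.1% were well above background, with the lowest share in cultured cells and the highest in Hepa1-6 TECs. No probe was saturated. The median coefficient of variation of repeated spots was 2.62% to 3.08%, and each member probe was a single spot whose error, as deposited, was about 10% of its signal where it was bright. Signals of 1 probe on a pair of arrays were taken to differ beyond this spot error where they were more than about 0.40 apart on the log2 scale, a limit that covers measurement of the spot and not variation between mice. The 3 TEC arrays shared 1 slide, while the LSEC array and the cultured cell array each lay on another, and for any comparison with LSECs the slide and the group cannot be told apart.

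The samples were checked against their labels. All 6 endothelial markers on a list (Pecam1, Cdh5, Tie1, Tek, Kdr and Erg) were well above background in LSECs and in the 3 TECs, and none was in cultured cells. Their summed normalized signal was 113928 in LSECs and 13296 to 23759 in TECs. All 20 genes of a pan-macrophage list, among them C1qa, Lyz2 and Tyrobp, were well above background on the 4 endothelial arrays too, with a summed signal of 857933 in LSECs and 650495 to 1.54e+06 in TECs. The samples labelled as endothelial cells thus held RNA of macrophage genes as well. The authors measured the purity of the isolated cells by flow cytometry. They held some cancer cell contamination to be unavoidable and took genes of cancer cells out of their own gene list. In such bulk samples, fewer cells of a type and less RNA per cell cannot be told apart.

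Kupffer cells settle in the sinusoids before birth and renew themselves there. They clear bacteria, lipoproteins and dying cells from portal blood through lectins and scavenger receptors. Macrophages of tumors derive largely from blood monocytes, and those in lipid-rich or necrotic areas are known for secreted SPP1, the membrane glycoprotein GPNMB and lysosomal genes. CSF1R, the receptor for CSF1 and IL34, is needed for the survival of both kinds. PU.1 is the main transcription factor of myeloid cells, and AP-1 factors act in stimulated macrophages.

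The probes of Clec4f and Vsig4 are shown because the resident Kupffer results rest on 1 probe per gene. They are the array's 60-base oligos, placed by the array design in mm9 at chr6:83595281-83595339 and chrX:93443157-93443216 on the minus strand.
Clec4f probe: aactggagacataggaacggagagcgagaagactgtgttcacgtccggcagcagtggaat
Vsig4 probe: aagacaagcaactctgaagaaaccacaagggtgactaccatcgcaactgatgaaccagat

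Promoters from RefSeq, on GRCm38.p6, were at hand for 8 of the 10 genes. The windows of Spp1 and Gpnmb are shown because these genes carried the signal above LSECs, and that of Cd68 because it stands for macrophages in general. Each run covers 220 bases before the start of transcription and 30 bases from it, at chr5:104434891-104435140 on the plus strand, chr6:49036298-49036547 on the plus strand and chr11:69666141-69666390 on the minus strand. Capitals mark the PU.1 motif GAGGAAGT in Spp1 and the AP-1 motif TGANTCA in Gpnmb and Cd68.
Spp1 promoter: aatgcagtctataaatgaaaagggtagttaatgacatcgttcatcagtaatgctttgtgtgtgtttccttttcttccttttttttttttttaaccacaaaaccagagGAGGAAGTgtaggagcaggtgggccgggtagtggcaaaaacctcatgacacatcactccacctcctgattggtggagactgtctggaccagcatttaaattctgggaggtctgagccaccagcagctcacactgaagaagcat
Gpnmb promoter: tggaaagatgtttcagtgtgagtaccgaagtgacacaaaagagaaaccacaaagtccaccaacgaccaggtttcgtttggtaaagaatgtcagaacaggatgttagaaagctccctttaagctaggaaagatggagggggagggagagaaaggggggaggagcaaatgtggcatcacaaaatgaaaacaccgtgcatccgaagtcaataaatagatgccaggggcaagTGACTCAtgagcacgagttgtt
Cd68 promoter: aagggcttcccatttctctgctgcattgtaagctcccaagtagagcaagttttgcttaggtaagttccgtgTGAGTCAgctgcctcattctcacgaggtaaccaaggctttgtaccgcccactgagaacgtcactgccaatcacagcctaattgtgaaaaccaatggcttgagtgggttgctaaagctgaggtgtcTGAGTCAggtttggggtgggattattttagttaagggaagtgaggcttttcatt

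In windows of 300 bases, searched on both strands, GAGGAAGT was present in 3.2% of 32851 promoters and TGANTCA in 7.81%. Among the 9 windows of these genes, only that of Spp1 held the first and only those of Gpnmb and Cd68 held the second, with 2 matches in Cd68. The motif TCANGTGA of the MITF and TFE factors, present in 4.18% of promoters, was in none of the 9, and neither was the direct repeat bound by LXR, present in 0.0152%. These matches describe the letters only.

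All 5 resident Kupffer genes were lower in each TEC than in LSECs, and both tumor macrophage genes were higher. The 3 genes shared by macrophages lay between, within 3-fold of LSECs on every TEC array by their brightest probes. In cultured Hepa1-6 cells the resident Kupffer genes and Adgre1 were not well above background, whereas Spp1 and Gpnmb were bright. With 1 array per condition no test applies to a single comparison, and all comparisons use the same LSEC array.

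**Figure D1:**
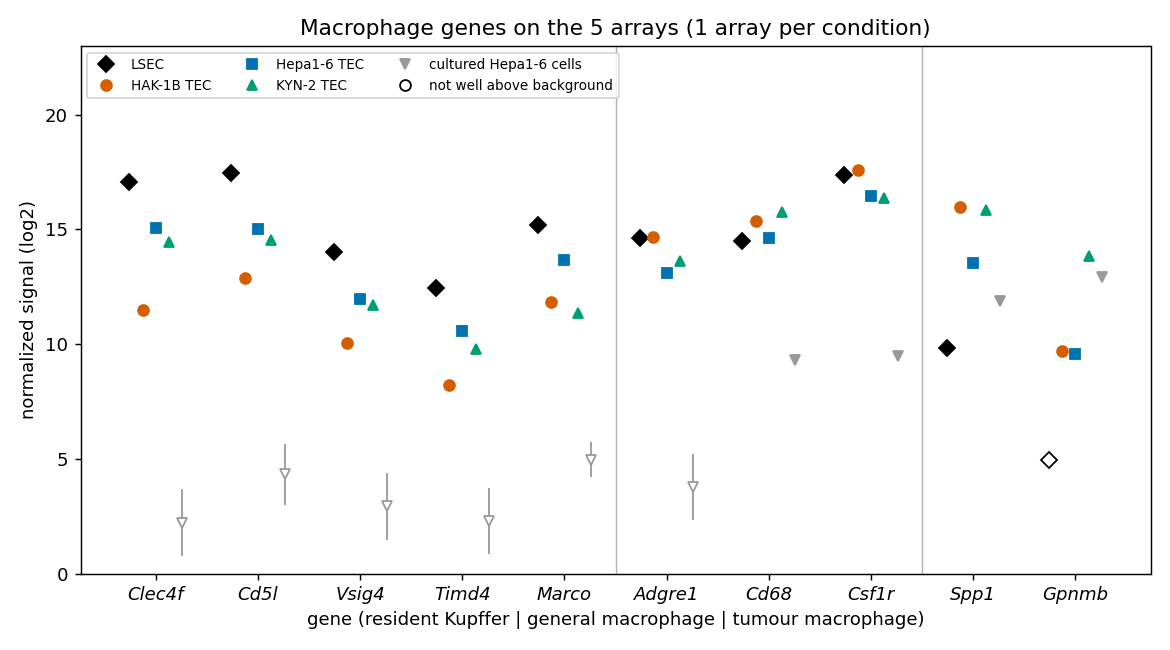
Normalized signal on the log2 scale of the 10 genes (brightest probe of each) on the 5 arrays, with the spot error as bars and open symbols where a probe was not well above background. The LSEC diamond is the highest of the 5 for each resident Kupffer gene and the lowest for Spp1 and Gpnmb.

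Clec4f, a lectin receptor found on Kupffer cells, had a log2 level of 17.07 in LSECs, 11.50 in HAK-1B TECs, 15.05 in Hepa1-6 TECs, 14.45 in KYN-2 TECs and 2.23 in cultured cells. Cd5l (probe at chr3:87174823-87174882, mm9), which encodes a secreted protein that keeps macrophages alive, had levels of 17.47, 12.88, 15.03, 14.56 and 4.33 in the same order. LSECs were highest for both genes, and HAK-1B TECs were the lowest of the endothelial arrays. Clec4f stood at 2.11% of its LSEC signal in HAK-1B TECs, 24.7% in Hepa1-6 TECs and 16.3% in KYN-2 TECs. The shares for Cd5l were 4.13%, 18.4% and 13.3%.

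Vsig4, the complement receptor with which Kupffer cells take up opsonized bacteria, had levels of 14.04 in LSECs, 10.04 in HAK-1B TECs, 11.97 in Hepa1-6 TECs, 11.72 in KYN-2 TECs and 2.93 in cultured cells. Timd4 (chr11:46657173-46657232, mm9), a phosphatidylserine receptor for dying cells, had levels of 12.44, 8.21, 10.59, 9.80 and 2.29. The order of the arrays was that of Clec4f and Cd5l, except that Hepa1-6 and KYN-2 TECs did not differ beyond the spot error for Vsig4. Vsig4 stood at 6.26%, 23.8% and 20.1% of LSECs in the 3 TECs, and Timd4 at 5.30%, 27.6% and 16.0%.

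Marco, a scavenger receptor for bacteria and particles, had levels of 15.20 in LSECs, 11.86 in HAK-1B TECs, 13.68 in Hepa1-6 TECs, 11.38 in KYN-2 TECs and 4.97 in cultured cells. It broke the order of the other 4 genes, since KYN-2 TECs and not HAK-1B TECs were lowest, by 0.48 on the log2 scale. Its shares of the LSEC signal were 9.86%, 35.0% and 7.09% in the 3 TECs. The array design places only 20 bases of this probe in mm9, at chr1:122371115-122371134.

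The LSEC level lay above all 3 TEC levels for 5 of 5 resident Kupffer genes, as it did for 28.5% of the 26771 genes tested. All 3 TECs were at a ratio of 0.66 or less for these 5 genes and for 13.7% of genes tested. The order with HAK-1B TECs lowest, then KYN-2 TECs, then Hepa1-6 TECs was seen for 4 of the 5, against 23.5% of genes tested and 14.5% of those at 0.66 or less in all 3 TECs. The 5 genes were spread over 2.22 on the log2 scale in HAK-1B TECs, 1.51 in KYN-2 TECs and 0.93 in Hepa1-6 TECs. Hepa1-6 TECs thus had the largest and most even share of these genes among the 3 TECs, from 18.4% to 35.0% of LSECs.

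Genes were then called by the rule of size in the methods, which asks for a ratio of 1.5 or more and a Z-score of 2 or more for a rise, and for 0.66 or less and -2 or less for a fall. The Z-score sets a log2 ratio against the spread of all probes in that comparison. A gene had to be 6.91-fold lower in HAK-1B TECs, 9.84-fold in Hepa1-6 TECs and 6.77-fold in KYN-2 TECs to pass, so a given change passed less easily in Hepa1-6 TECs.

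In HAK-1B TECs, 5 of 5 resident Kupffer genes fell by this rule, where 3.94% of all genes tested did. The fold decreases were 47.3 for Clec4f, 24.2 for Cd5l, 18.9 for Timd4, 16.0 for Vsig4 and 10.1 for Marco. In KYN-2 TECs, 2 of the 5 fell, Marco by 14.1-fold and Cd5l by 7.55-fold, where 2.87% of genes did. Just outside the limit in KYN-2 TECs were Timd4 with a Z-score of -1.92 and Clec4f with -1.90, and Cd5l lay just inside with -2.11. In Hepa1-6 TECs none of the 5 passed, where 2.04% of genes did, and the ratios of Clec4f, Cd5l, Vsig4, Timd4 and Marco corresponded to signals lower by 4.05-, 5.44-, 4.20-, 3.62- and 2.86-fold. With the normexp background correction, 5 passed in KYN-2 TECs and 3 in Hepa1-6 TECs (Clec4f, Cd5l and Vsig4). In HAK-1B TECs 4 of the 5 passed when arrays were scaled to the 75th percentile, which lost Marco, and all 5 under the other alternatives. For these alternatives the share of all genes called is not given. The number of calls therefore depended on the processing, most in KYN-2 and Hepa1-6 TECs, while the sign of each ratio did not change under any alternative tried.

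Markers of other cells also differed between the arrays, not all in 1 direction. Of the 6 endothelial genes, 3, 2 and 2 fell by the rule of size in the 3 TECs, among them Kdr in each with log2 ratios of -3.70, -3.48 and -3.24. The 4 sinusoidal endothelial markers on the list had a summed signal of 489294 in LSECs and 45610 to 59767 in TECs, and all 4 were well above background on all 4 endothelial arrays. Among them, Clec4g had log2 ratios of -4.37, -3.78 and -3.87 in the 3 TECs, Stab2 had -4.36, -3.29 and -2.93, and Fcgr2b had -1.39, -2.70 and -2.38. The remaining marker, Lyve1, named after its values were seen, had -0.22, 0.97 and 1.88. The 4 hepatocyte markers summed to 10743 in LSECs, 169 in HAK-1B TECs, 49284 in Hepa1-6 TECs and 763 in KYN-2 TECs. Alb had log2 ratios of -6.46, 2.57 and -4.11 and a level of 15.54 in Hepa1-6 TECs and 13.94 in cultured cells, and Cyp2e1 had ratios of -5.47, -1.65 and -4.00. Ttr had a log2 ratio of 0.22 in Hepa1-6 TECs. In HAK-1B TECs 2 of the 4, among them Ttr, were not well above background. The part of these cells in the Kupffer results was not tested.

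Adgre1, which encodes the macrophage antigen F4/80, had levels of 14.62 in LSECs, 14.66 in HAK-1B TECs, 13.11 in Hepa1-6 TECs, 13.63 in KYN-2 TECs and 3.77 in cultured cells on its brighter probe (chr17:57622843-57622902, mm9). LSECs and HAK-1B TECs did not differ beyond the spot error. The log2 ratios were 0.04 in HAK-1B TECs, -1.51 in Hepa1-6 TECs and -0.99 in KYN-2 TECs. The dimmer probe (chr17:57550221-57550280) gave 0.97, -1.24 and -0.07, so the probes ranked the 3 TECs alike but differed by 0.93 in HAK-1B TECs and by 0.92 in KYN-2 TECs.

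Cd68, a lysosomal glycoprotein of macrophages, had levels of 14.50 in LSECs, 15.35 in HAK-1B TECs, 14.62 in Hepa1-6 TECs, 15.75 in KYN-2 TECs and 9.31 in cultured cells on its brightest probe (chr11:69477775-69477834, mm9). On this probe KYN-2 and HAK-1B TECs were 0.40 apart, at the limit of the spot error, and on the other 2 probes KYN-2 TECs were higher beyond it, by 0.47 and 0.50. Hepa1-6 TECs and LSECs did not differ beyond the spot error on any of the 3. The log2 ratios of the 3 probes were 0.85, 1.27 and 1.14 in HAK-1B TECs and 1.25, 1.74 and 1.63 in KYN-2 TECs. In Hepa1-6 TECs they were 0.12, 0.24 and -0.24. The dimmest probe was not well above background in cultured cells, where the other 2 were.

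Csf1r had levels of 17.36 in LSECs, 17.60 in HAK-1B TECs, 16.46 in Hepa1-6 TECs, 16.35 in KYN-2 TECs and 9.48 in cultured cells on its brighter probe. HAK-1B TECs and LSECs did not differ beyond the spot error, and neither did Hepa1-6 and KYN-2 TECs. The log2 ratios were 0.24, -0.90 and -1.0 in the 3 TECs on this probe and 0.97, -1.19 and -0.04 on the dimmer one. For KYN-2 TECs the probes were thus apart by almost as much as the brighter one was from LSECs. None of the 3 shared genes passed the rule of size in a TEC. A ratio of 1.5 or more in 1 TEC together with 0.66 or less in another was seen for 0 of the 10 genes by their brightest probes, against 8.7% of genes tested. The dimmer probes of Adgre1 and Csf1r met it, each with a log2 ratio of 0.97 in HAK-1B TECs and with -1.24 and -1.19 in Hepa1-6 TECs, and so did Csf1r by the mean over its probes, with log2 ratios of 0.60 in HAK-1B TECs and -1.05 in Hepa1-6 TECs.

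**Figure D2:**
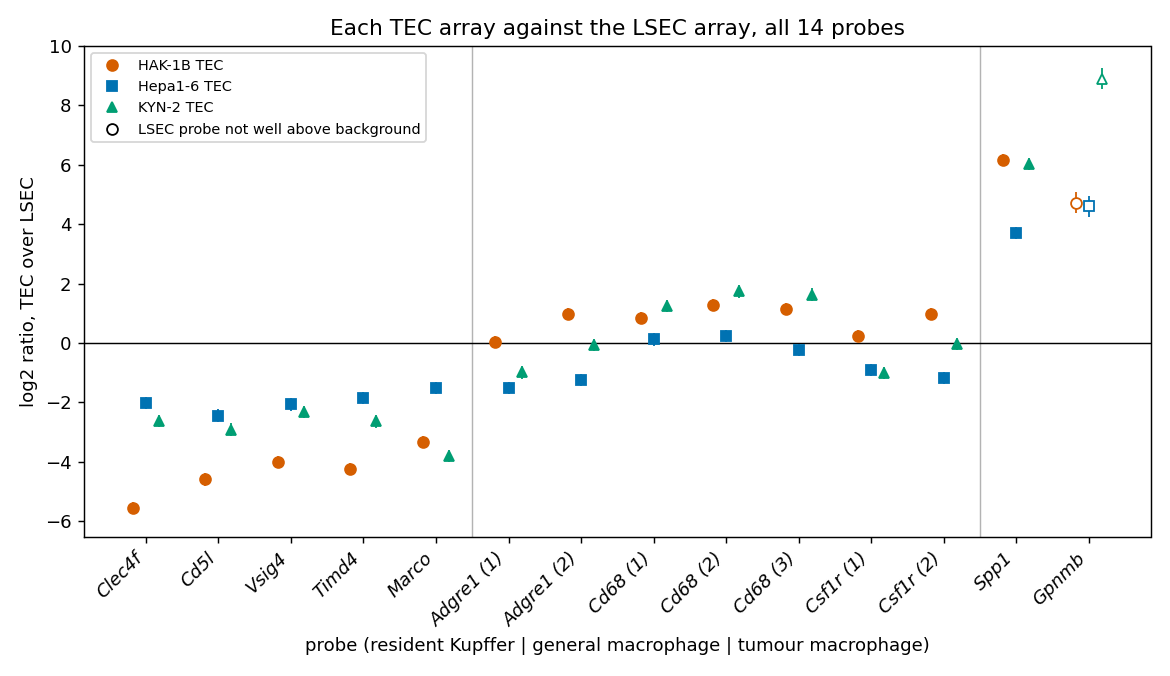
Log2 ratio of each TEC array to the LSEC array for all 14 probes, with the combined spot error as bars; numbers in brackets count probes of a gene from the brightest, and open symbols mark a gene not well above background in LSECs. The 15 ratios of resident Kupffer genes lie below 0, the 6 of Spp1 and Gpnmb lie above it, and the 3 shared genes lie between.

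Spp1, or osteopontin, is a secreted phosphoprotein that binds CD44 and integrins. Its levels were 9.83 in LSECs, 15.98 in HAK-1B TECs, 13.53 in Hepa1-6 TECs, 15.86 in KYN-2 TECs and 11.86 in cultured cells (probe at chr5:104869788-104869847, mm9). All 3 TECs lay above both LSECs and cultured cells, and HAK-1B and KYN-2 TECs did not differ beyond the spot error. Relative to LSECs, Spp1 was 71.2-fold higher in HAK-1B TECs, 13-fold in Hepa1-6 TECs and 65.4-fold in KYN-2 TECs. Cultured Hepa1-6 cells were 4.09-fold above LSECs, and Hepa1-6 TECs were 3.17-fold above the cultured cells.

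Gpnmb, a glycoprotein of lysosomes and the cell surface, had levels of 9.69 in HAK-1B TECs, 9.57 in Hepa1-6 TECs, 13.86 in KYN-2 TECs and 12.93 in cultured cells. In LSECs it was not well above background, at 4.97 with a spot error of 22.5% (probe at chr6:49006386-49006445, mm9). The ratios to LSECs are therefore lower bounds, each TEC against the higher of the dimmest signal well above background and the probe's own signal in LSECs. Gpnmb was at least 26.5-fold higher in HAK-1B TECs, at least 24.3-fold in Hepa1-6 TECs and at least 477-fold in KYN-2 TECs. These bounds hold for this processing only, since with the normexp background correction the log2 ratios were 3.09, 2.95 and 7.15 where they were 4.73, 4.60 and 8.90 before. HAK-1B and Hepa1-6 TECs did not differ beyond the spot error, and KYN-2 TECs were 18-fold above HAK-1B TECs. In contrast to Spp1, cultured Hepa1-6 cells exceeded Hepa1-6 TECs for Gpnmb, by 10.3-fold.

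By the rule of size, 2 of 2 tumor macrophage genes rose in each TEC, where 3.11% of genes tested rose in HAK-1B TECs, 4.54% in Hepa1-6 TECs and 3.64% in KYN-2 TECs. The LSEC level lay below all 3 TEC levels for both genes, as for 27% of genes tested, and both were at a ratio of 1.5 or more in all 3 TECs, as were 10.3%. Spp1 lay just inside the limit in Hepa1-6 TECs, with a Z-score of 2.11. It was no longer called there when arrays were scaled to the 75th percentile, and Gpnmb was lost in all 3 TECs where a probe had to be present on both arrays.

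The class medians of the log2 ratios give the contrast in one value for each TEC. For the 5 resident Kupffer genes they were -4.24 in HAK-1B TECs, -2.02 in Hepa1-6 TECs and -2.64 in KYN-2 TECs. For the 3 shared genes they were 0.24, -0.90 and -0.99, and for the 2 tumor macrophage genes 5.44, 4.15 and 7.46, which are lower bounds because each includes the ratio of Gpnmb. Over all genes tested the medians were -0.03, 0.07 and -0.03. The distance between the tumor macrophage and the resident Kupffer medians was thus at least 9.68 in HAK-1B TECs, at least 6.16 in Hepa1-6 TECs and at least 10.11 in KYN-2 TECs on the log2 scale. These bounds hold for this processing only. With the normexp background correction the median over the 3 TECs was 4.80 for the tumor macrophage genes, where it was 5.68 before. The resident Kupffer median was highest in Hepa1-6 TECs, and the level of Spp1, which was measured on every array, was lowest there among TECs.

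The 3 TECs were also fitted as 1 group against LSECs with limma, the tumors of 3 lines standing as replicates and the lone LSEC array being assumed to vary as TECs do. After Benjamini-Hochberg adjustment over 42112 probes, 0 of the 10 genes passed 0.05, and 0% of all probes did. At an unadjusted p under 0.05 there were 6 of 10 genes, where 8.5% of probes passed. Spp1 had the smallest adjusted p in limma among them, 0.455, with a difference of 5.29 (95% confidence interval 2.10 to 8.48) and a higher level in 3 of 3 TECs. Clec4f had a difference of -3.40 (95% confidence interval -7.61 to 0.81) with an adjusted p in limma of 0.662, lower in 3 of 3 TECs. For Adgre1 the difference was -0.82 with an interval from -2.92 to 1.28, which spans changes of either sign. The 10 genes were chosen with earlier results of these data known, so their count in this fit is not independent of that choice.

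In cultured Hepa1-6 cells, a hepatoma line, all 5 resident Kupffer genes and both Adgre1 probes were not well above background. Against LSECs, Cd5l was at least 2919-fold lower, Clec4f at least 2205-fold, Marco at least 604-fold, Adgre1 at least 405-fold, Vsig4 at least 270-fold and Timd4 at least 89.4-fold. These bounds too hold for this processing only. With normexp the log2 ratios were -11.05 for Clec4f, -11.01 for Cd5l, -8.58 for Marco, -8.50 for Adgre1, -7.50 for Vsig4 and -6.03 for Timd4. The mean over probes gave -7.46 for Adgre1, and its dimmer probe alone a bound of 3.36-fold. Csf1r was 234-fold lower and Cd68 36.5-fold lower, and both remained well above background on their brightest probes. The dimmer Csf1r probe was 12.8-fold lower, and the mean over both probes gave a log2 ratio of -5.77 where the brighter gave -7.87. By the rule of size, 7 genes fell (the 5 resident Kupffer genes, Adgre1 and Csf1r), where 4.81% of genes tested did, and 1 rose, Gpnmb at least 249-fold (a log2 ratio of 7.96, and 6.24 with normexp), where 2.59% did. The Hepa1-6 marker Afp was at 15.38 in Hepa1-6 TECs, 15.92 in cultured cells, 7.80 in LSECs, 6.21 in HAK-1B TECs and 8.06 in KYN-2 TECs. The part of tumor cell RNA in the Spp1 and Gpnmb levels of Hepa1-6 TECs was not tested beyond these values. For HAK-1B and KYN-2 TECs that part was not tested at all, since none of the arrays held cultured cells of those lines.

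Further genes known from Kupffer cells were lower in TECs as well. Of 13 such genes, 12 lay below LSECs in all 3 TECs and 1 lay above. By the rule of size 8 fell in HAK-1B TECs, 2 in Hepa1-6 TECs (Hpgd and Kcna2) and 5 in KYN-2 TECs, and Slco2b1 rose in HAK-1B and KYN-2 TECs. Of all genes tested, 3.94%, 2.04% and 2.87% fell in the 3 TECs and 3.11%, 4.54% and 3.64% rose. These shares apply to every list below as well. The list medians of the log2 ratio were -4.10, -1.75 and -2.37 in the 3 TECs. Hpgd, which breaks down prostaglandins, fell in all 3 TECs with log2 ratios of -5.38, -3.81 and -3.95. Kcna2, a potassium channel gene, was at 7.66 in LSECs and not well above background in HAK-1B and KYN-2 TECs, which gives decreases of at least 10.4-fold and at least 8.07-fold. Slco2b1, an organic anion transporter, was an exception to the list, with levels of 7.14 in LSECs, 11.87 in HAK-1B TECs, 10.19 in Hepa1-6 TECs and 10.98 in KYN-2 TECs.

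Transcription factors of Kupffer cell identity moved less. Of 12 genes, 2 (Maf and Spic) fell in HAK-1B TECs by the rule of size and none was called in the other TECs, with list medians of -1.14, -0.80 and -0.46. Maf, a factor of mature macrophages, had log2 ratios of -2.83, -2.23 and -2.69, of which the first passed. Id3 had -2.48, -1.70 and -1.34, and Rbpj, the effector of Notch signaling, lay above LSECs with 2.62, 2.04 and 2.64. None of the ratios of Id3 and Rbpj passed.

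None of the 20 pan-macrophage genes was called in a TEC. Since no more than 4.54% of all genes tested rose and no more than 3.94% fell in any TEC, few of 20 would be. The list medians were 0.83 in HAK-1B TECs, -0.46 in Hepa1-6 TECs and 0.02 in KYN-2 TECs. Mrc1, the mannose receptor, which sinusoidal endothelium also carries, had log2 ratios of -2.47, -2.34 and -2.34. Cd14, the coreceptor for endotoxin, had 2.22, 0.23 and 1.62, and Itgam had -1.22, -1.64 and -1.25. In cultured Hepa1-6 cells 11 of the 20 genes were well above background, among them Cd14 at 10.40 and Itgam at 11.96. HAK-1B TECs, lowest of the endothelial arrays for 4 of the 5 resident Kupffer genes, had the highest median of this list among the 3 TECs.

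Genes of lipid-associated and tumor macrophages were higher in part. Of 20, 13 lay above LSECs in all 3 TECs and none lay below in all 3. By the rule of size 6 rose in HAK-1B TECs, 3 in Hepa1-6 TECs (Arg1, Apoc2 and Mmp12) and 8 in KYN-2 TECs, and Lpl fell in HAK-1B TECs. Arg1, the arginine-degrading enzyme of alternatively activated macrophages, had levels of 7.29 in LSECs, 14.74 in HAK-1B TECs, 13.76 in Hepa1-6 TECs and 15.03 in KYN-2 TECs, and it rose in each. It was not well above background in cultured Hepa1-6 cells. Mmp12, the macrophage elastase, rose in Hepa1-6 and KYN-2 TECs with log2 ratios of 4.88 and 6.78, and had 2.84 in HAK-1B TECs. Vegfa, which many cell types secrete under hypoxia, rose in HAK-1B and KYN-2 TECs with 5.83 and 4.85, and had 3.05 in Hepa1-6 TECs. Ctsb, Lgmn and Apoe, chosen here after their values were seen, had log2 ratios from -0.79 to 0.53.

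**Figure D3:**
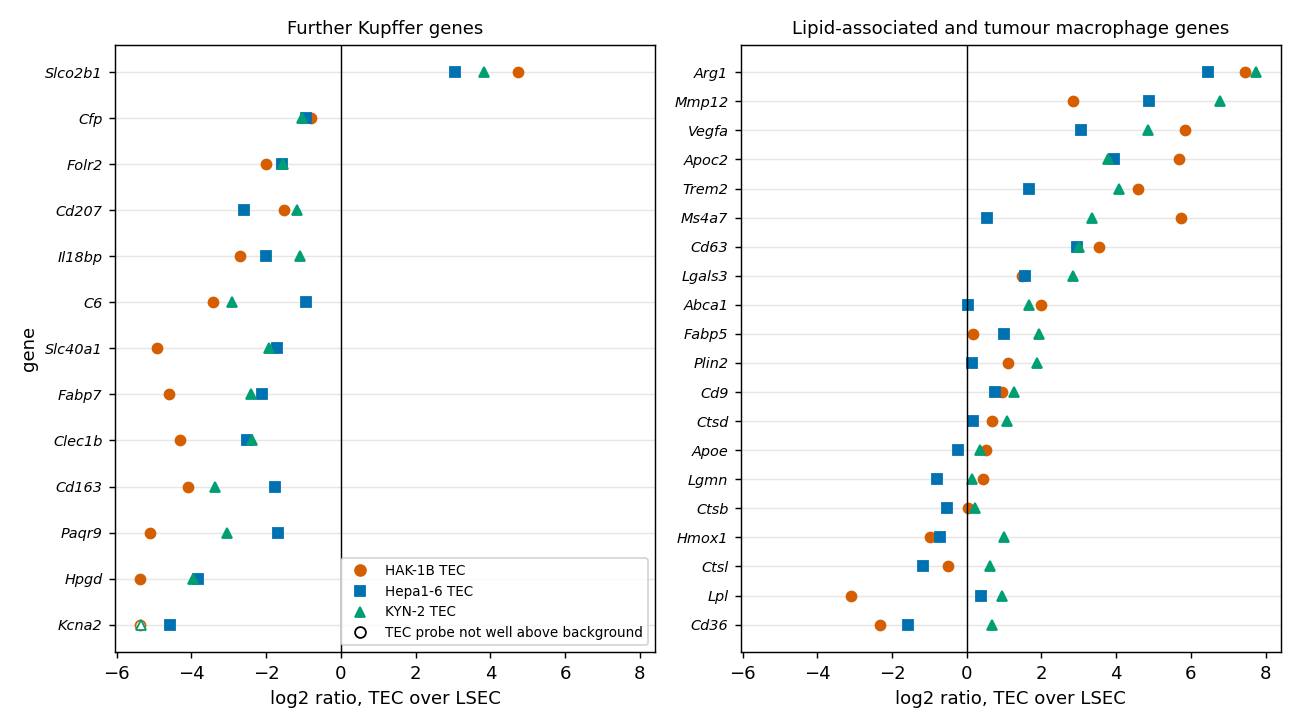
Log2 ratio of each TEC array to the LSEC array for the 13 further Kupffer genes and the 20 lipid-associated and tumor macrophage genes, sorted by the mean of the 3 TECs. On the left, 12 of 13 genes have all 3 symbols below 0, and on the right 13 of 20 have all 3 above it.

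The monocyte list, 12 genes, had 9 genes above LSECs in all 3 TECs and 3 below. By the rule of size 3 rose in HAK-1B TECs, 3 in Hepa1-6 TECs and 2 in KYN-2 TECs, and Cd300e, named after its values were seen, fell in HAK-1B TECs, with log2 ratios of -3.02, -3.22 and -2.36, of which the last 2 did not pass. Chil3 rose in all 3 TECs with log2 ratios of 6.82, 7.79 and 3.86, and F13a1, a clotting factor subunit of monocytes and macrophages, with 3.90, 3.53 and 4.86. Chil3 was also bright in cultured Hepa1-6 cells, at 12.17, whereas F13a1 was not well above background there. Ccr2, the chemokine receptor of inflammatory monocytes, had 5.29, 3.54 and 1.68 and passed in HAK-1B and Hepa1-6 TECs.

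Ligands and receptors around Csf1r and Spp1 were examined next. Csf1, a ligand of CSF1R, had levels of 13.03 in LSECs, 10.94 in HAK-1B TECs, 10.99 in Hepa1-6 TECs, 11.24 in KYN-2 TECs and 12.20 in cultured cells, and no TEC passed the rule. Il34, the other ligand, passed in Hepa1-6 TECs, at a signal at least 49.2-fold above LSECs, where it was not well above background. It was at 8.86 in cultured Hepa1-6 cells. The receptor subunit Csf2rb had log2 ratios of 2.13, 1.31 and 1.14 in the 3 TECs, none of which passed.

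Of 9 receptors for SPP1, none rose in a TEC by the rule of size, and 1 fell in HAK-1B and in Hepa1-6 TECs. That gene was Itga8, an integrin subunit of mesenchymal cells, with log2 ratios of -3.93, -4.10 and -2.62. Itga9 had -2.07, -2.21 and -1.71, and Itga5 had 1.91, -0.27 and 1.82, and these did not pass.

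The MITF and TFE factors are known to drive lysosomal genes and Gpnmb. Of 10 genes on this list, 1 was called higher in each TEC, the proton pump subunit gene Atp6v0d2. LSECs did not show it well above background, and its signal was higher by at least 4.03-fold in HAK-1B TECs, at least 26.2-fold in Hepa1-6 TECs and at least 86.2-fold in KYN-2 TECs. The bound in HAK-1B TECs is below the 7.25-fold that the rule asks for there, so that call rests on an LSEC signal that was not well above background. Mitf had log2 ratios of 1.36, -0.28 and 1.05 and Tfec had -1.92, -1.02 and -1.52, and none passed. Ocstamp, a fusion gene of osteoclasts and giant cells, rose in each TEC with log2 ratios of 4.38, 5.74 and 3.95. Its partner Dcstamp, not well above background in LSECs, was at least 37.3-, 7.78- and 11.6-fold higher and was called in each, but in Hepa1-6 TECs the bound is below the 11.4-fold that the rule asks for. Calcr, the osteoclast gene for the calcitonin receptor, was well above background in Hepa1-6 TECs only, at 4.27. That array had the largest share of probes well above background, 78.1%, against 54.1% to 57.6% on the other endothelial arrays.

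Uptake genes differed by receptor. Among 8 complement uptake receptors, Itgax rose in each TEC with log2 ratios of 6.23, 4.58 and 4.43, while Vsig4 on the same list was lower. C3ar1 rose in HAK-1B and KYN-2 TECs with 3.41 and 3.31 and had 1.56 in Hepa1-6 TECs. Of 11 scavenger receptors, Stab2 and Cd163 fell in HAK-1B and KYN-2 TECs and none fell in Hepa1-6 TECs. Cd163, the hemoglobin receptor, had log2 ratios of -4.10, -1.75 and -3.38, of which the first and the third passed, and Scarb2 had -1.73, -2.96 and -2.21. Of 12 genes for uptake of dying cells on the array, 1 (Stab2) fell in HAK-1B TECs, none in Hepa1-6 TECs and 2 (Stab2 and Pros1) in KYN-2 TECs, and the bridging ligands Gas6 and Pros1 had ratios from -2.84 to -1.70, of which only that of Pros1 in KYN-2 TECs passed.

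**Figure D4:**
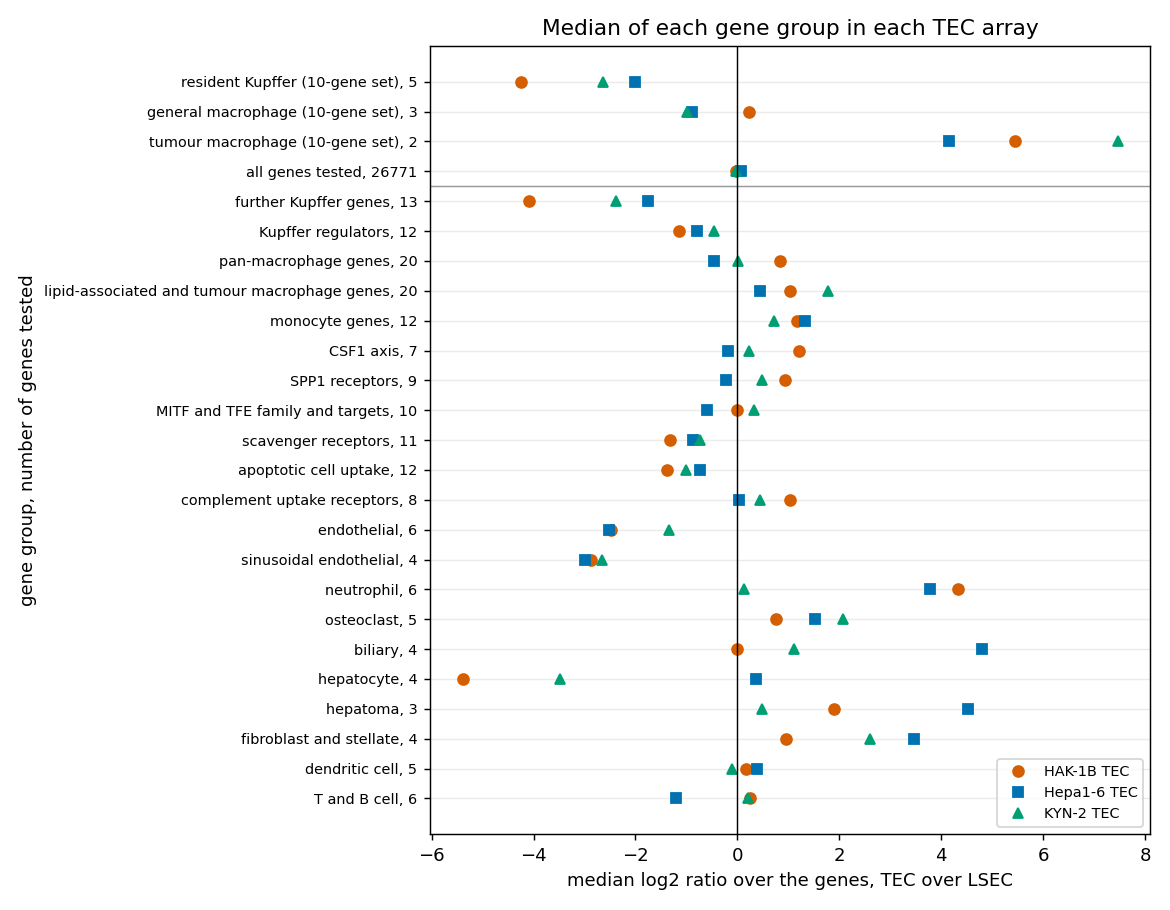
Median log2 ratio to LSECs in each TEC for the 3 classes of the 10 genes, for all genes tested and for 21 lists of related genes and other cell types, with the number of genes tested. The resident Kupffer and further Kupffer medians lie below -1.7 in each TEC and the tumor macrophage medians above 4. The sinusoidal endothelial medians, -2.87, -2.99 and -2.66, lie below -1.7 in each TEC as well.

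Other cells of the tumor also differed between arrays. S100a8 and S100a9, known from neutrophils, stood at log2 ratios of 7.03 and 7.0 in HAK-1B TECs, 4.37 and 4.59 in Hepa1-6 TECs, and 1.62 and 1.15 in KYN-2 TECs, and rose in the first 2. Cxcr2, a chemokine receptor of neutrophils, rose at least 20.2-fold in HAK-1B TECs over an LSEC signal not well above background. The collagen gene Col1a1, not well above background in LSECs, was at least 26.7-, 71.1- and 112-fold higher in the 3 TECs. Col3a1 had log2 ratios of 2.63, 3.63 and 3.91, of which the last 2 passed, and Dcn had -0.79, 3.28 and 0.23. Dcn was brightest in cultured Hepa1-6 cells, at 16.74, against 14.72 in Hepa1-6 TECs. The biliary markers Krt7 and Epcam rose in Hepa1-6 TECs by at least 35.1-fold and at least 19.2-fold, and Krt7 was at 10.97 in cultured cells. Sox9 rose in Hepa1-6 TECs as well, at least 20.5-fold. On the hepatoma list besides Afp, Gpc3 had 1.90, 4.53 and 0.49 and H19 had 3.14, 3.50 and 4.48. Gpc3 was at 9.52 in cultured Hepa1-6 cells, whereas H19 was not well above background there, at 4.87. In the lymphocyte list, none of 6 genes was called in a TEC, which the small shares of all genes called would also give. Cd3e had log2 ratios of -0.72, -1.05 and -0.01 and Ms4a1 had 0.44, -2.34 and -0.70. Cd3e was at 8.77 in cultured Hepa1-6 cells. Cd8a was well above background in Hepa1-6 TECs alone of the 5 arrays, but its level there was only 3.26. That was below LSECs (4.06), HAK-1B TECs (3.90) and cultured cells (3.55) and above KYN-2 TECs (2.95). Dendritic cell genes were mixed, with Zbtb46 at -3.21, -4.18 and -2.57, Clec9a at -2.87, -2.13 and -2.09 and Flt3 at 3.03, 0.64 and 0.96.

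The genes whose profile over the 5 arrays was most like that of Clec4f were found by the root mean square difference of centred log2 values among 27055 genes. They were Cd5l at 0.82, Fcna at 0.83, Stab2 at 0.98, Gpr182 at 1.00 and Clec4g at 1.03. Fcna encodes a secreted lectin of macrophages, and Stab2, Gpr182 and Clec4g are genes of sinusoidal endothelium. The other resident Kupffer genes ranked 26 for Vsig4, 65 for Timd4 and 105 for Marco, and Adgre1 ranked 133. For Gpnmb the nearest were Igfbp3 at 1.13, Xrcc5 at 1.14, Stc1 at 1.16, Ttc9 at 1.17 and Gtsf1 at 1.19, and Spp1 ranked 1186. Of these 5, all but Igfbp3 were, like Gpnmb, not well above background in LSECs. In the Clec4f profile the cultured cells lay farthest from the other arrays.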

How the data were processed

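RNA from LSECs, from TECs of 3 tumor lines and from cultured Hepa1-6 cells was amplified, labelled with Cy3 and hybridized to an Agilent 60-mer mouse array, 1 array per condition, by the authors, who per the labels read the scans with Agilent Feature Extraction 9.5.1.1. The deposited files give linear spot intensity values from which the authors' software had subtracted background, with the error and flags of each spot, and a table of normalized intensity values that was used as an alternative.

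Control spots were left out, spots of 1 probe were averaged, and the values were put on the log2 scale and quantile normalized across all 5 arrays. A gene took its probe of highest mean signal. Ratios and Z-scores followed the methods, over probes present on at least 1 of the 2 arrays, without lincRNA probes. The 3 TECs were compared with LSECs as a group in limma 3.58.1 (R 4.3.3), which left 2 residual degrees of freedom. Other steps used Python 3.11.15, numpy 2.4.6 and pandas 2.3.3. Both procedures were run on simulated data with the same noise on every probe and array and large changes in bright probes. The arrays here need not be like that, so the simulation does not measure power on these data. Precision is limited by the number of arrays.

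The 10 genes, the 21 lists and the motifs were chosen with earlier results of these data known. From each list the 3 genes with the largest mean ratio in either direction, and the 5 nearest genes to Clec4f and Gpnmb, were named. Alternatives were scaling to the 75th percentile, normexp with an offset of 50, the deposited table, normalization by pair, the mean over probes, other flag filters, the ratio alone, leaving out each TEC and, chosen after seeing the data, leaving out spots marked as outliers.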

Additional observations from a re-analysis of the deposited data

Results flagged for a closer look

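Some probes of the shared macrophage genes lay on opposite sides of the LSEC array in different TECs. Each TEC is 1 array, so these differences were not tested.

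For Adgre1, the log2 ratio to LSECs was above 0 in HAK-1B TECs and below 0 in the other TECs on both probes. HAK-1B TECs exceeded Hepa1-6 TECs by 1.55 on the brighter probe and 2.21 on the dimmer one, and KYN-2 TECs by 1.04 on each. For Csf1r the same signs were seen, with HAK-1B TECs above Hepa1-6 TECs by 1.14 on the brighter and 2.16 on the dimmer probe, and above KYN-2 TECs by 1.24 and 1.01. On the brighter probe of both genes the HAK-1B ratio was within the spot error of 0, and on the dimmer probe the KYN-2 ratio was.

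For Cd68, only the dimmest of the 3 probes had a ratio below 0 in Hepa1-6 TECs, where HAK-1B TECs were higher by 1.38 and KYN-2 TECs by 1.87. That ratio, -0.24, was within the spot error of 0.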

How the results depend on the processing

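The sign of all 40 member ratios to LSECs was kept under the 6 alternatives that recomputed them, and no class median changed sign. Scaling to the 75th percentile moved the median log2 ratio of all genes to -0.16 in HAK-1B TECs, 0.41 in Hepa1-6 TECs, -0.08 in KYN-2 TECs and 0.48 in cultured cells. With it, 4 resident Kupffer genes fell in HAK-1B TECs (5 before, Marco being lost), 1 member rose in Hepa1-6 TECs (Gpnmb) and 1 fell in KYN-2 TECs (Marco). With normexp, 3 fell in Hepa1-6 TECs and 5 in KYN-2 TECs. With the ratio alone, 7 fell in Hepa1-6 TECs, 7 fell in KYN-2 TECs and 2 rose in cultured cells. With a present flag on both arrays, 1 rose in each TEC (Spp1), 5 fell in KYN-2 TECs, and in cultured cells 0 rose and 2 fell. Without a flag filter, 4 fell in KYN-2 TECs. The share of all genes called is given for the main setting only, so these counts have no background beside them. The cause of the changes was not tested.

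Leaving out 1 TEC, the median over TECs was -3.58 to -2.32 for resident Kupffer genes (lowest without Hepa1-6 TECs, highest without HAK-1B TECs, against -2.91 with all 3), -0.95 to -0.33 for shared genes and 4.79 to 6.45 for tumor macrophage genes (5.68 with all 3). In limma, no member passed after adjustment under any alternative run. How many had an unadjusted p under 0.05 changed with the alternative, and so did the share of all probes. With a single LSEC array in each fit, those counts are not given. No paired analysis was possible because there was a single array in every group. A block for slide was left out, since no slide held both LSECs and TECs.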
